A study of Homo sapiens with 21 samples.

Results

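The genes described here encode 10 proteins of the contractile actin cytoskeleton: the calponins CNN1 and CNN2, caldesmon (CALD1), the tropomyosins TPM1 and TPM2, transgelin (TAGLN), smooth muscle alpha actin (ACTA2), the myosin regulatory light chain MYL9, the myosin light chain kinase MYLK and the actin crosslinker filamin C (FLNC). They were taken as a list of symbols, matched through Ensembl identifiers, and make up 10 of the 53515 genes in the files. All 10 were found, and all 10 were among the 15389 genes with a mean of at least 1 CPM (counts scaled to library size, as given below) over the lines, CNN1 only through the line HCC4006ER.

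Contractile cells pull by sliding myosin along actin filaments. The kinase MYLK phosphorylates the myosin light chain and so switches the motor on, while tropomyosin, caldesmon and calponin lie along the actin filament and govern access to it. Many of these genes are known as targets of serum response factor (SRF) and its cofactors of the myocardin family, and they are used as markers of smooth muscle and of myofibroblasts.

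RNA sequencing of 21 libraries from 17 established human cancer cell lines compared 7 parental lines with 10 lines made resistant to a drug by growing doses over months. The study asked if altered DNA methylation has a part in resistance that comes with an epithelial to mesenchymal transition. The liver line HepG2 gave rise to HepG2S1 and HepG2S3 under sorafenib, a kinase inhibitor, and the pancreatic line PancVB to PancB1Q and PancB1V under 5-fluorouracil, a blocker of thymidylate synthase. Among the lung lines, HCC4006P1 gave rise to HCC4006ER under erlotinib, HCC4006P2 to HCC4006GR under gefitinib and HCC827P to HCC827GR under gefitinib, both drugs being inhibitors of the EGF receptor. Among the ovarian lines, UWB1.289 gave rise to U10 and U100 under the PARP inhibitor olaparib, and IGROV-1 to IGROV-1/CDDP under cisplatin. HCC4006P1 and HCC4006P2 both carry the name HCC4006, and each resistant line is a single derivative, so a pair shows what that derivative became and not what the drug does in general. HepG2 and its derivatives grew in a medium of their own, all other lines in another.

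There were 2 libraries for each of HepG2, HCC4006P1, HepG2S3 and HCC4006ER, and 1 for each of the remaining 13 lines. Nothing states that replicate libraries came from separate cultures, so tests on them measure the spread between these libraries. Reads on genes ranged from 9851195 to 36639473 per library (median 19498932), so that 3 counts, taken as the floor of detection, stood for 0.0819 to 0.305 CPM, which scales counts to 1e6 reads on genes. Intervals given below are 95% Wilson intervals carried to the log2 difference. They cover counting error only, since copies made by PCR were not marked. Because 1 CPM is added before the logarithm, a log2 change at low levels is smaller than the logarithm of the fold.

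In some libraries markers of the tissue given for the line were low or missing. The identity of the lines was not tested. The 4 liver markers summed to 13050 CPM in HepG2, with ALB at 12183 CPM, but to 0.812 CPM in HepG2S1 and 10.1 CPM in HepG2S3, where ALB at 9.17 CPM was the only marker above 1 CPM. The 3 lung markers NKX2-1, SFTPB and NAPSA summed to 0.365 CPM in HCC4006P1 and 0.535 CPM in HCC4006ER, each under 1 CPM, against 266 CPM in HCC4006P2, 21.2 CPM in HCC4006GR, 91.7 CPM in HCC827P and 28.1 CPM in HCC827GR. PAX8, a marker of ovarian carcinoma, stood at 357 to 664 CPM in the 5 ovarian lines while WT1, the other marker of that list, stayed under 1 CPM in each. In PancVB the duct marker KRT19 stood at 677 CPM and the 3 duct markers summed to 775 CPM, but that list also summed to 1968 CPM in HCC4006P1 and so did not set the pancreas apart. In addition, HCC4006P1 replicate 1 held no count for any of the 1679 genes past position 30620149 of chromosome 7, in alphabetical order of chromosomes, that had at least 50 counts in replicate 2. Before that point 1 of 9777 such genes lacked counts. CALD1, FLNC and TPM2 lie in this stretch, so their level in HCC4006P1 came from replicate 2 alone.

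Filamin C, a large crosslinker that ties actin filaments to each other and to adhesion sites and is best known from muscle, differed most between lines. FLNC (ENSG00000128591, chromosome 7, 128470460 to 128499328, plus strand, GRCh37) stood at 0.191 and 0.201 CPM in the HepG2 libraries, 7 counts each, at 329 CPM in HepG2S1 and at 204 and 207 CPM in HepG2S3. In the pancreatic lines it stood at 12.5 CPM in PancVB, 231 CPM in PancB1Q and 297 CPM in PancB1V. In the lung lines it stood at 55.6 CPM in HCC4006P1 replicate 2, 470 and 538 CPM in HCC4006ER, 5.22 CPM in HCC4006P2, 107 CPM in HCC4006GR, 310 CPM in HCC827P and 432 CPM in HCC827GR. The low values were thus all in parental lines, and none of the resistant lines was under 107 CPM. The ovarian lines were high on both sides, with 785 CPM in UWB1.289, 663 CPM in U10, 616 CPM in U100, and for the cisplatin pair 854 CPM (parent) and 1188 CPM (resistant), so parental and resistant lines overlapped.

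As a ratio of CPM, FLNC was 1678-fold higher in HepG2S1 and 1048-fold higher in HepG2S3 than in HepG2, 18.5-fold and 23.8-fold higher in PancB1Q and PancB1V than in PancVB, 9.05-fold higher in HCC4006ER and 20.5-fold higher in HCC4006GR. The change on the scale used throughout, the difference of log2(CPM + 1), was 8.11 (interval 7.95 to 8.22) for HepG2S1 and 7.43 (7.28 to 7.53) for HepG2S3, 4.11 in PancB1Q (3.94 to 4.27), 4.46 in PancB1V (4.30 to 4.63), 3.16 in HCC4006ER (3.07 to 3.24) and 4.12 in HCC4006GR (3.82 to 4.40). It was 0.48 in HCC827GR and in IGROV-1/CDDP, and negative in the olaparib lines, -0.24 in U10 and -0.35 in U100. Lines from the same parent share its libraries, so the values for HepG2S1 and HepG2S3, for PancB1Q and PancB1V, and for U10 and U100 stand side by side and are not independent. FLNC shares 0.735% of its exon bases with an antisense gene. The strand setting of the counting is not given in the sources used here, so for members that share exon bases with other genes the reads may be placed on either gene or left out.

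**Figure D1:**
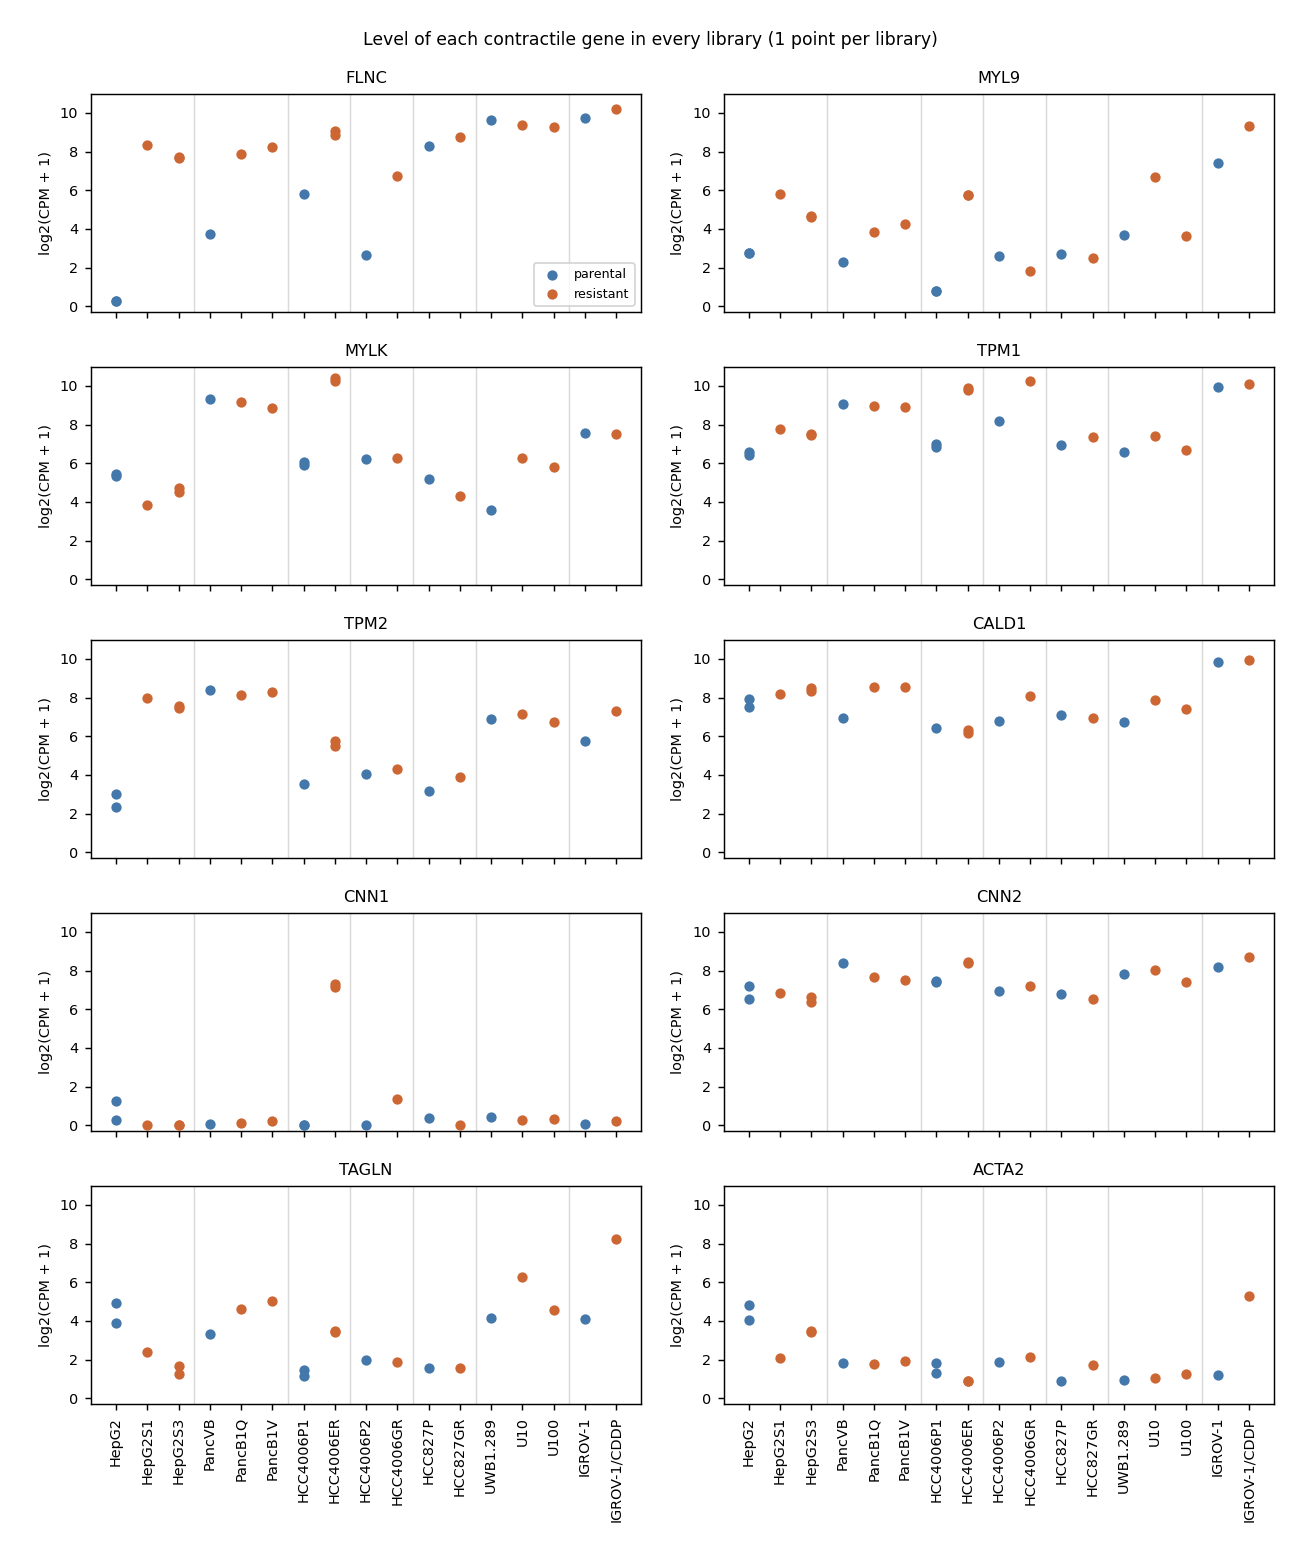
Level of each contractile gene, log2(CPM + 1), in every library of the 17 lines, with 1 point per library, parental lines in blue and resistant lines in orange, and vertical lines between families. FLNC is near 0 in HepG2 and high in all 10 resistant lines, CNN1 is high in HCC4006ER alone, and ACTA2 and TAGLN are highest in IGROV-1/CDDP.

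The regulatory light chain MYL9 is the subunit through which phosphorylation turns on the myosin of smooth muscle and nonmuscle cells. MYL9 (ENSG00000101335, chromosome 20, 35169900 to 35179850, plus strand) stood at 5.81 and 5.71 CPM in HepG2, 55.2 CPM in HepG2S1, and 23.5 and 24.4 CPM in HepG2S3. It stood at 3.82 CPM in PancVB, 13.1 CPM in PancB1Q and 18.0 CPM in PancB1V, and at 0.744 and 0.718 CPM in HCC4006P1 but 53.8 and 53.7 CPM in HCC4006ER. The other lung lines were low on both sides, with 5.07 CPM in HCC4006P2, 2.58 CPM in HCC4006GR, 5.54 CPM in HCC827P and 4.70 CPM in HCC827GR. In the ovary it stood at 11.7 CPM in UWB1.289, 101 CPM in U10, 11.4 CPM in U100, and for the cisplatin pair at 171 CPM (parent) and 637 CPM (resistant). MYL9 was thus higher by 2-fold or more in 7 of the 10 pairs, from 73.6-fold in HCC4006ER (log2 change 4.98, interval 4.74 to 5.19) to 3.44-fold in PancB1Q (1.55, interval 1.27 to 1.83). Of the 2 olaparib lines, U10 was 8.59-fold higher than UWB1.289, while the interval for U100, -0.34 to 0.28, included 0. HCC4006GR was lower than its parent, with a change of -0.76 (interval -1.19 to -0.32).

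MYLK, the kinase that phosphorylates MYL9, followed another pattern. MYLK (ENSG00000065534, chromosome 3, 123328896 to 123603179, minus strand) stood at 42.1 and 39.6 CPM in HepG2, 13.1 CPM in HepG2S1, and 25.1 and 21.7 CPM in HepG2S3. It was high in all 3 pancreatic lines, with 641 CPM in PancVB, 576 CPM in PancB1Q and 469 CPM in PancB1V. It stood at 58.2 and 65.7 CPM in HCC4006P1 and at 1370 and 1224 CPM in HCC4006ER, the highest level of any line. The remaining values were 73.1 CPM in HCC4006P2, 77.5 CPM in HCC4006GR, 35.2 CPM in HCC827P, 19.1 CPM in HCC827GR, 10.9 CPM in UWB1.289, 76.1 CPM in U10, 54.2 CPM in U100, and for the cisplatin pair 191 CPM (parent) and 182 CPM (resistant). MYLK was therefore higher by 2-fold or more in HCC4006ER (20.9-fold, log2 change 4.37, interval 4.31 to 4.42), U10 (6.97-fold, change 2.69) and U100 (4.96-fold, change 2.21), and lower in HepG2S1 (change -1.57, interval -1.80 to -1.33). In HepG2S3 the change was -0.78, but -1.07, past 2-fold, with library sizes scaled by the trimmed mean of M values (TMM). The small changes of -0.16 in PancB1Q and -0.07 in IGROV-1/CDDP took the other sign, 0.02 and 0.01, with TMM library sizes. MYL9 and its kinase were both higher by 2-fold or more in HCC4006ER and U10 only. In HepG2S1 they differed in opposite directions.

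Promoters, 250 bases before to 50 bases after each start, were available for 8 of the 10 members in 13 entries (RefSeq, GRCh38.p14) and are shown because SRF is the common regulator named for these genes. All promoters were searched on both strands for the CArG box, to which SRF binds, and for CATTCC, the core bound by TEAD factors. The CArG box was taken strictly as CCWWWWWWGG, with W for A or T, and near matches were not counted. An ACTA2 entry holds such a near match, ccctatatgg, with C in place of A or T. An exact CArG box was present in 1 entry each of 2 members, MYLK and CNN2, and in 454 of all 35116 promoters. CATTCC was present in 5 entries of 4 members, ACTA2, CALD1, FLNC and MYLK, and in 14.0% of all promoters. A match is a description of letters and not of a bound site. The promoters of MYLK (chr3:123620499-123620798, minus strand), CNN2 (chr19:1026358-1026657, plus strand), FLNC (chr7:128830156-128830455, plus strand) and CNN1 (chr19:11538601-11538900, plus strand) are given 5′ to 3′, with the motifs in capitals. The only MYLK entry is at a start inside the gene, toward its 3′ end, and not at the start of the long transcripts that encode the kinase. FLNC and CNN1 were chosen for display after their values were seen.
MYLK: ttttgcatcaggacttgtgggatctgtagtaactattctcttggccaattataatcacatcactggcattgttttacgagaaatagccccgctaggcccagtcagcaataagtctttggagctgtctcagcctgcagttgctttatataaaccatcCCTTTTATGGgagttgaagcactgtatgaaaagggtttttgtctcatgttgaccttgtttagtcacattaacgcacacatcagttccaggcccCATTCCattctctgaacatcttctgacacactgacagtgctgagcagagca
CNN2: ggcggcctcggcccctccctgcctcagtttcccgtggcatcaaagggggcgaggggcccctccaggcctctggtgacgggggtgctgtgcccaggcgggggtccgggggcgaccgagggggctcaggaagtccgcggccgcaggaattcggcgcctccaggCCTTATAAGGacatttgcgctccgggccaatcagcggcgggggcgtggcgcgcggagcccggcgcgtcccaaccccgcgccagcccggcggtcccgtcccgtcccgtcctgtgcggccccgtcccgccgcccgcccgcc
FLNC: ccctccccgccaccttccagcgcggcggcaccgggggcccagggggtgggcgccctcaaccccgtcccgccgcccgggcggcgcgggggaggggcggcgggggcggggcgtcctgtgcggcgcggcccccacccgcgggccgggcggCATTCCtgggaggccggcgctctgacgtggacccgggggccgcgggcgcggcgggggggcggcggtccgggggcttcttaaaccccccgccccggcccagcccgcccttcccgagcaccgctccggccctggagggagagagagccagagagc
CNN1: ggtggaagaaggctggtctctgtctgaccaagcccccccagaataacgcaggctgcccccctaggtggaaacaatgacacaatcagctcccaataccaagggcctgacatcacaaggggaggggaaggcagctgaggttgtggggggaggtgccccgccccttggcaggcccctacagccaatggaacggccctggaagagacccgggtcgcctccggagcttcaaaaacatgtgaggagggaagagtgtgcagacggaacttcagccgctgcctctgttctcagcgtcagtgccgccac
The box of the MYLK entry, CCTTTTATGG, began at -94 from this inner start, and that of CNN2, CCTTATAAGG, at -89. MYLK also carried CATTCC, beginning at -1, and FLNC carried it at -103. The CNN1 window held no exact match to either motif.

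The tropomyosins are coiled coils that run along the groove of the actin filament. TPM1 (ENSG00000140416, chromosome 15, 63334819 to 63364114, plus strand) stood at 95.8 and 85.9 CPM in HepG2, 218 CPM in HepG2S1, 182 and 175 CPM in HepG2S3, 112 and 125 CPM in HCC4006P1, and 890 and 949 CPM in HCC4006ER. It stood at 288 CPM in HCC4006P2 and 1235 CPM in HCC4006GR, the highest level of any line, and at 123 CPM in HCC827P and 163 CPM in HCC827GR. In the remaining lines it stood at 536 CPM in PancVB, 490 CPM in PancB1Q, 485 CPM in PancB1V, 95.4 CPM in UWB1.289, 170 CPM in U10, 103 CPM in U100, and for the cisplatin pair at 972 CPM (parent) and 1102 CPM (resistant). Both HCC4006 derivatives were thus far above their parents, 7.76-fold in HCC4006ER (log2 change 2.95, interval 2.90 to 2.99) and 4.29-fold in HCC4006GR (2.10, interval 2.05 to 2.15). HepG2S1 was 2.40-fold higher, a change of 1.25 that fell short of 2-fold, at 0.84, with TMM library sizes, and PancB1Q differed by -0.13, or by 0.04 with TMM library sizes. HepG2S3 was 1.97-fold higher, a change of 0.97 that was 1.05, and so past 2-fold, without HepG2 replicate 1. TPM1 shares 22.7% of its exon bases with antisense genes that the files do not list, and counts per gene do not separate its splice forms.

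TPM2 (ENSG00000198467, chromosome 9, 35681989 to 35690053, minus strand) stood at 7.12 and 4.05 CPM in HepG2 and at 250 CPM in HepG2S1 and 174 and 187 CPM in HepG2S3. In the other families it stood at 331 CPM in PancVB, 276 CPM in PancB1Q, 307 CPM in PancB1V, 10.6 CPM in HCC4006P1 replicate 2, and 53.1 and 44.4 CPM in HCC4006ER. It stood at 15.5 CPM in HCC4006P2, 19.1 CPM in HCC4006GR, 8.02 CPM in HCC827P, 13.6 CPM in HCC827GR, 116 CPM in UWB1.289, 139 CPM in U10, 104 CPM in U100, and for the cisplatin pair at 53.7 CPM (parent) and 155 CPM (resistant). The widest change was that of the sorafenib lines, 44.7-fold in HepG2S1 (log2 change 5.25, interval 5.12 to 5.38) and 32.3-fold in HepG2S3 (4.79, interval 4.66 to 4.91), followed by 4.59-fold in HCC4006ER and 2.88-fold in IGROV-1/CDDP. The pancreatic and olaparib lines stayed within 2-fold of their parents, from -0.26 in PancB1Q to 0.26 in U10.

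Caldesmon, which binds actin, tropomyosin and myosin and holds back the motor, varied less. CALD1 (ENSG00000122786, chromosome 7, 134429003 to 134655480, plus strand) ranged from 84.3 CPM in HCC4006P1 to 922 CPM in IGROV-1 among parental lines and from 75.5 CPM in HCC4006ER to 968 CPM in IGROV-1/CDDP among resistant lines. It was higher by 2-fold or more in 4 pairs: from 122 CPM in PancVB to 371 CPM in PancB1Q and 373 CPM in PancB1V, a change of 1.60 in each, from 110 to 266 CPM in HCC4006GR (1.27, interval 1.18 to 1.35), and from 106 to 237 CPM in U10 (1.15, interval 1.05 to 1.25). In the other lines CALD1 stood at 240 and 183 CPM in HepG2, 292 CPM in HepG2S1, 324 and 362 CPM in HepG2S3, 136 CPM in HCC827P, 124 CPM in HCC827GR and 170 CPM in U100. HCC4006ER, in which other members were far above the parent, was at 79.5 and 71.4 CPM, a change of -0.16.

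CNN1, the calponin of differentiated smooth muscle, was at or near 0 in most lines. CNN1 (ENSG00000130176, chromosome 19, 11649582 to 11661138, plus strand) had 0 counts in both HCC4006P1 libraries and 141 and 157 CPM in the HCC4006ER libraries, at least 2107-fold higher when the parental group is set at 3 counts over its libraries. It had 0 counts in HCC4006P2 and 24 counts in HCC4006GR, or 1.59 CPM, at least 7.21-fold higher. In HepG2 the libraries differed, with 1.36 CPM in replicate 1 and 0.201 CPM in replicate 2, and HepG2S1 and HepG2S3 had 0 counts, at least 2.57-fold and 16.3-fold lower. The change in each, -0.83, was -0.26 without HepG2 replicate 1, -1.24 without HepG2 replicate 2, -1.01 with TMM library sizes and -3.14 with 0.1 in place of 1 CPM added. Elsewhere CNN1 was under 0.4 CPM: 0.0460 CPM in PancVB, 0.0700 CPM in PancB1Q, 0.161 CPM in PancB1V, 0.288 CPM in HCC827P, 0 in HCC827GR, 0.344 CPM in UWB1.289, 0.195 CPM in U10, 0.229 CPM in U100, and for the cisplatin pair 0.0364 CPM (parent) and 0.158 CPM (resistant). None of these differences exceeded counting error. CNN1 was thus abundant in 1 of 17 lines.

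CNN2, the calponin of nonmuscle cells, was expressed in every line, from 109 CPM in HCC827P to 336 CPM in PancVB among parental lines and from 83.4 and 96.6 CPM in HepG2S3 to 413 CPM in IGROV-1/CDDP among resistant lines. CNN2 (ENSG00000064666, chromosome 19, 1026585 to 1039067, plus strand) changed by 2-fold in no pair, the extremes being -0.91 in PancB1V (interval -0.96 to -0.85) and 0.96 in HCC4006ER (0.92 to 1.00). Its libraries in HepG2 differed, with 148 and 90.2 CPM. The other lines stood at 114 CPM in HepG2S1, 201 CPM in PancB1Q, 179 CPM in PancB1V, 174 and 172 CPM in HCC4006P1, 335 and 343 CPM in HCC4006ER, 123 CPM in HCC4006P2, 148 CPM in HCC4006GR, 90.5 CPM in HCC827GR, 222 CPM in UWB1.289, 261 CPM in U10, 170 CPM in U100 and 290 CPM in IGROV-1. CNN2 shares 9.29% of its exon bases with a gene that the files do not list.

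Transgelin binds and stiffens actin filaments and is an early marker of the smooth muscle lineage. TAGLN (ENSG00000149591, chromosome 11, 117070086 to 117078180, plus strand) stood at 29.5 and 13.7 CPM in HepG2, 4.16 CPM in HepG2S1, 2.19 and 1.40 CPM in HepG2S3, 9.02 CPM in PancVB, 23.3 CPM in PancB1Q and 32.0 CPM in PancB1V. It stood at 1.71 and 1.18 CPM in HCC4006P1 and 9.66 and 10.2 CPM in HCC4006ER, and within 1.93 to 2.94 CPM in HCC4006P2, HCC4006GR, HCC827P and HCC827GR. It stood at 16.5 CPM in UWB1.289, 77.1 CPM in U10, 22.4 CPM in U100, and for the cisplatin pair at 15.9 CPM (parent) and 304 CPM (resistant). TAGLN thus took opposite directions: it was 19.1-fold higher in IGROV-1/CDDP (log2 change 4.17, interval 4.04 to 4.31), 6.89-fold higher in HCC4006ER, 4.67-fold in U10, 3.55-fold in PancB1V and 2.58-fold in PancB1Q, but 5.19-fold lower in HepG2S1 (change -2.13), and lower in HepG2S3 as well (change -3.02, interval -3.19 to -2.83). Without HepG2 replicate 1 these changes were -1.51 and -2.40. TAGLN shares 47.8% of its exon bases with other genes, among them PCSK7 on the opposite strand. PCSK7 was at 94.7 CPM in IGROV-1/CDDP against 72.9 CPM in its parent, and at 31.7 CPM in HepG2, 71.1 CPM in HepG2S1 and 58.0 CPM in HepG2S3, where TAGLN was lower. The part of shared reads was not tested.

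ACTA2, the actin isoform of vascular smooth muscle and myofibroblasts, was low in nearly all lines. ACTA2 (ENSG00000107796, chromosome 10, 90694831 to 90751096, minus strand) stood at 15.8 and 27.8 CPM in HepG2, 3.25 CPM in HepG2S1, and 9.97 and 9.76 CPM in HepG2S3. It stood at 37.7 CPM in IGROV-1/CDDP against 1.27 CPM in its parent, 29.6-fold higher (log2 change 4.09, interval 3.79 to 4.35), and at 2.54 and 1.49 CPM in HCC4006P1 and 0.860 and 0.873 CPM in HCC4006ER, a change of -0.69 that was -1.13 with 0.1 in place of 1 CPM added. All other lines were within 0.865 to 3.31 CPM. ACTA2 was thus highest in IGROV-1/CDDP and next in HepG2, and it was lower in the sorafenib lines, by -2.42 in HepG2S1 and -1.07 in HepG2S3, the latter becoming -0.63 without HepG2 replicate 2. Without that replicate HepG2S3 no longer differed by 2-fold. ACTA2 shares 36.2% of its exon bases with FAS and other genes. FAS itself stood at 25.4 CPM in IGROV-1/CDDP against 3.27 CPM in its parent, and its part in the ACTA2 value was not tested. ACTA2 is close in sequence to the other actins, and reads that fit several genes are not counted.

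The line with the highest ACTA2 and TAGLN also carried smooth muscle markers. Of the 6 markers on that list, 5 reached 1 CPM in IGROV-1/CDDP: SMTN at 26.6 CPM, ACTG2 at 11.9 CPM, LMOD1 at 6.84 CPM, DES at 3.80 CPM and MYH11 at 3.12 CPM, with MYOCD at 0. In IGROV-1 these were 20.4, 0.255, 1.06, 0.146 and 1.78 CPM, and the list summed to 23.6 CPM there and to 52.3 CPM in IGROV-1/CDDP. ACTG2, the enteric smooth muscle actin, was 46.6-fold higher (log2 change 3.36, interval 3.04 to 3.58). In the other lines the list summed to 18.1 CPM in HCC827P up to 105 CPM in HCC4006GR, and SMTN, smoothelin, made up most of each sum. MYOCD, the myocardin coactivator, was at 9.36 CPM in U10, 2.21 CPM in U100 and 0.602 CPM in UWB1.289, the family in which MYLK was higher in both resistant lines. In these bulk samples a larger number of cells of some kind and more RNA per cell cannot be told apart. What part these markers have in the ACTA2 and TAGLN values was not tested.

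**Figure D2:**
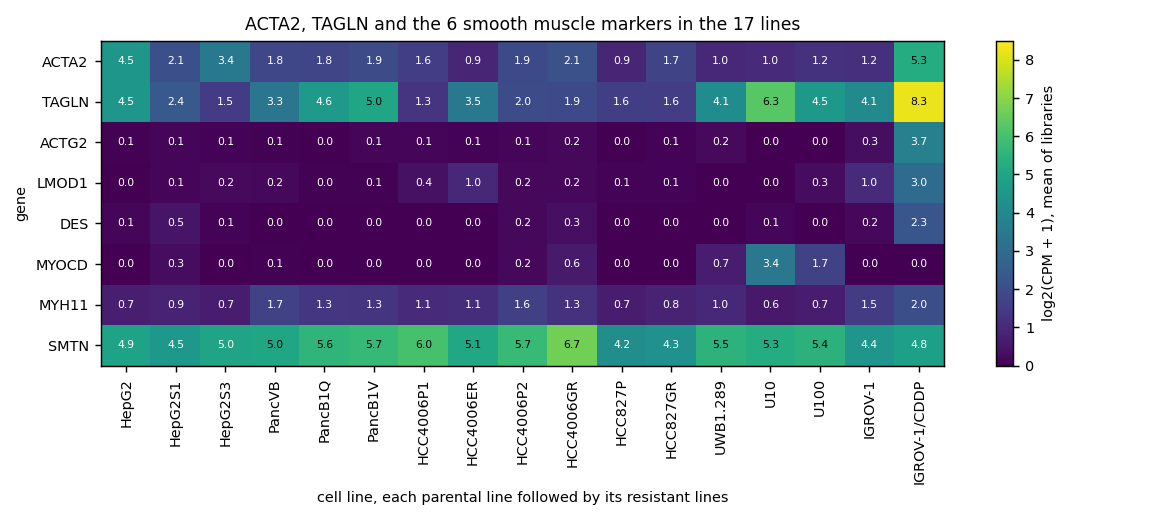
ACTA2, TAGLN and the 6 smooth muscle markers as mean log2(CPM + 1) of the libraries of each line, by color and by printed value, with each parental line followed by its resistant lines. SMTN is present in every line, whereas ACTG2, LMOD1 and DES stand out in IGROV-1/CDDP and MYOCD in U10.

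Counted pair by pair, with 2-fold or more as the call and no test, the members can be read against all 15389 genes. In HepG2S1 4 members were up (TPM1, TPM2, MYL9 and FLNC), where 23.2% of all genes were, and 3 were down (TAGLN, ACTA2 and MYLK), where 15.4% were. In HepG2S3 3 were up (TPM2, MYL9 and FLNC) against 24.6% of genes, and 2 were down (TAGLN and ACTA2) against 14.5%. Both sorafenib lines therefore held members far above and far below the parent within a background that was itself wide.

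In PancB1Q and in PancB1V the same 4 members were up, CALD1, TAGLN, MYL9 and FLNC, and none was down. Among all genes 5.43% were up and 8.18% down in PancB1Q, and 7.75% up and 6.52% down in PancB1V. In HCC4006ER 7 members were up, all but CNN2, CALD1 and ACTA2, and none was down, against 11.5% and 9.30% of genes. Without HCC4006P1 replicate 2, which leaves no value for CALD1, FLNC and TPM2, 5 members were up there. HCC4006ER had the most members up of the 10 pairs, and the median change of its members, 2.55, compared with 0.09 over all genes. Both values include CNN1, which reached a mean of 1 CPM only through this line. Without CNN1 it still had the most members up.

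In HCC4006GR 4 members were up (CNN1, CALD1, TPM1 and FLNC) and none down, against 7.13% and 6.69% of genes. In HCC827GR no member was up or down, against 9.04% and 6.87%, although ACTA2 at 15 counts in the parent and 36 in the resistant line was 2.68-fold higher and passed the call, as a change of 1.32, with 0.1 in place of 1 CPM added. In U10 4 members were up (CALD1, TAGLN, MYL9 and MYLK), against 5.66% of genes, and none down, against 4.63%. The 2 olaparib lines shared MYLK, the 1 member up in U100, where 5.76% of genes were up and 1.65% down. In IGROV-1/CDDP 4 members were up (TPM2, TAGLN, ACTA2 and MYL9) and none down, against 4.78% and 6.35%. No member was up in all pairs, and MYL9 with 7 pairs and FLNC with 6 were up most often.

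Elsewhere the members had a median change of 0.54 in U10 and 0.04 in U100, 0.49 in IGROV-1/CDDP, 0.28 in HCC4006GR, -0.07 in HCC827GR, 0.00 in PancB1Q, 0.14 in PancB1V, and 0.20 and 0.15 in the sorafenib lines HepG2S1 and HepG2S3. In HepG2S1 and HepG2S3 the median over all genes, 0.19 and 0.20, lay where the members' median did, and TMM library sizes moved it to -0.07 and 0.00. Small changes in these 2 pairs include that shift.

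**Figure D3:**
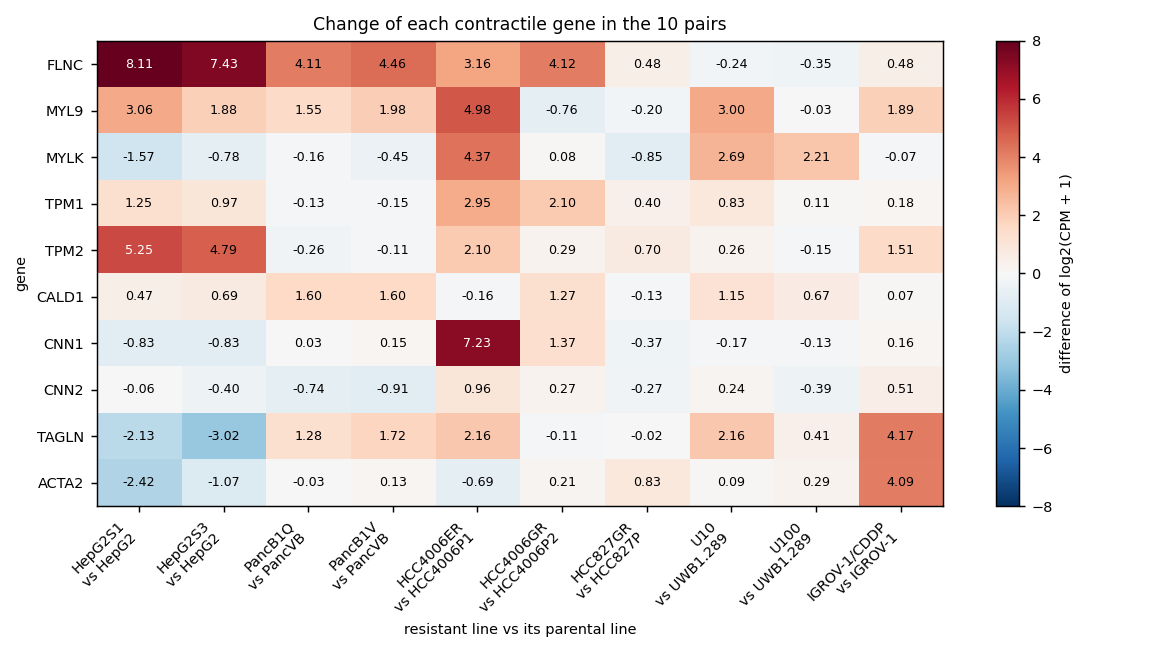
Change of each contractile gene, difference of log2(CPM + 1), for the 10 resistant lines against their parental lines, with red for higher and blue for lower in the resistant line and the value printed in each cell. FLNC is positive in 8 of 10 pairs and TAGLN runs from -3.02 in HepG2S3 to 4.17 in IGROV-1/CDDP, while the signs of TPM1 and MYLK in PancB1Q and of MYLK in IGROV-1/CDDP turn with TMM library sizes.

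The pair HepG2S3 against HepG2 asks which members changed in sorafenib resistance beyond the spread of replicate libraries. In an edgeR quasi-likelihood test with Benjamini-Hochberg adjustment over 16929 genes, 9 members were tested, 4 rose against 31.4% of genes and 3 fell against 32.1%, with CNN1 removed by the filter on low counts. FLNC, 1 of the 4 that rose, was at 0.196 CPM in HepG2 and passed that filter only through HepG2S3. The other members that rose were TPM1, TPM2 and MYL9. CNN1 fell in the 5 alternatives that tested it, DESeq2, no filter, and the fits without HepG2 replicate 2 or without either HepG2S3 replicate. FLNC rose by a log2 fold change of 9.70 (SE 0.19, adjusted p = 2.6e-05 by edgeR), TPM2 by 4.70 (SE 0.31, adjusted p = 2.1e-04) and MYL9 by 1.74 (SE 0.16, adjusted p = 6.0e-04). Of the members that fell, TAGLN did so by -3.90 (SE 0.48, edgeR adjusted p = 0.0015, log2 change -3.24 without HepG2 replicate 1), ACTA2 by -1.46 (SE 0.30, adjusted p = 0.00834) and MYLK by -1.12 (SE 0.16, adjusted p = 0.00226). In each case both libraries of HepG2S3 lay on the same side of both HepG2 libraries. TPM1 rose by 0.66 (SE 0.13, edgeR adjusted p = 0.00767), a call lost without either HepG2S3 replicate, with adjusted p from 8.1e-11 to 0.0885 over the alternatives. CNN2 at -0.72 (SE 0.26, edgeR adjusted p = 0.0577) and CALD1 at 0.38 (SE 0.18, adjusted p = 0.114) did not pass. CNN2 passed in 4 alternatives, DESeq2, the replicate block and the fits without either HepG2 replicate, with adjusted p from 4.3e-23 to 0.221 over the alternatives, and CALD1 passed without HepG2 replicate 1, with 4.0e-07 to 0.410. The HepG2 libraries differed from each other more than other replicates did, the chi-square divided by its degrees of freedom being 105, against 9.13 for HepG2S3.

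Fibroblast markers moved in the same lines. Their list of 8 genes summed to 25.3 CPM in HepG2, 580 CPM in HepG2S1 and 419 CPM in HepG2S3, with the proteoglycan gene DCN most abundant at 399 and 345 CPM. PDGFRB, another of the list, differed between the HepG2 libraries, at 13.9 and 2.24 CPM, and stood at 2.03 CPM in HepG2S1 and 7.69 and 6.07 CPM in HepG2S3. By 2-fold, 3 of the 8 were up and 1 (PDGFRB) down in HepG2S1, and 3 up and 0 down in HepG2S3. The direction of PDGFRB depended on the HepG2 library, its edgeR log2 change in HepG2S3 being -0.56 (SE 0.79, not passing), 1.31 without HepG2 replicate 1 and -1.35 without HepG2 replicate 2. In HepG2S3 4 of the 6 tested markers rose by edgeR (DCN, LUM, FAP and THY1), while PDGFRA, COL3A1 and THY1 stayed under 1 CPM in both sorafenib lines. The 4 that rose were at 0.028 CPM or less in HepG2. They passed the filter on low counts only through HepG2S3, so their direction was fixed by it. PDGFRB and COL1A1, also tested, did not pass. PDGFRA and COL3A1, which were not tested, went from 0.272 to 0.0312 CPM and from 0.138 to 0.0163 CPM. All 4 liver markers and all 3 epithelial markers (EPCAM, KRT8 and KRT18) fell. TTR, at 0.0944 CPM in HepG2S3, passed the filter on low counts only through HepG2. The part of these lists in the change of the contractile genes was not tested.

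The pair HCC4006ER against HCC4006P1 asks the same of erlotinib resistance. In edgeR, over 12791 genes, 7 members were tested, 6 rose against 24.1% of genes and 1 fell against 24.9%, and CALD1, FLNC and TPM2 were left out with the rest of the stretch that replicate 1 lacks. CNN1, 1 of the 6 that rose, had no counts in the parent and passed the filter on low counts only through HCC4006ER. This held in the alternatives that kept the filter as well. The other members that rose were MYL9, MYLK, TPM1, TAGLN and CNN2. MYL9 rose by 6.09 (SE 0.19, edgeR adjusted p = 8.4e-06), MYLK by 4.29 (SE 0.15, adjusted p = 1.1e-05), TPM1 by 2.85 (SE 0.14, adjusted p = 2.4e-05), TAGLN by 2.67 (SE 0.24, adjusted p = 2.5e-04) and CNN2 by 0.87 (SE 0.11, adjusted p = 0.00111). CNN1 rose as well (edgeR adjusted p = 1.0e-05), and its fitted fold change, 14.52 (SE 0.35), depends on the prior count since the parent had no counts. For these 6 genes the libraries of the 2 lines did not overlap. ACTA2 fell by 1.31 on the log2 scale (SE 0.36, edgeR adjusted p = 0.0227), a call lost in 6 alternatives, with adjusted p from 3.1e-05 to 0.11. When HCC4006P1 replicate 1 was left out and all genes were kept, an alternative added after the data were seen, 10 members were tested by edgeR, 8 rose, against 30.8% of genes, FLNC and TPM2 among them, and CALD1 fell, against 31.2%, while ACTA2 at -0.96 did not pass. The lone parental library was then assumed to vary like the HCC4006ER libraries.

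Fibroblast markers rose here too, 6 of the 6 tested by edgeR. Of these, DCN, LUM, PDGFRA, PDGFRB and COL3A1 were at 0.0988 CPM or less in HCC4006P1. They passed the filter on low counts only through HCC4006ER, so their direction was fixed by it. COL1A1 went from 16.0 to 40.2 CPM, and THY1, which was not tested, from 0.529 to 0.101 CPM. The fibroblast list summed to 16.9 CPM in HCC4006P1 and 250 CPM in HCC4006ER, with LUM at 115 CPM the most abundant, COL3A1 at 43.5 CPM, PDGFRB at 35.8 CPM and DCN at 12.7 CPM, and with FAP and THY1 under 1 CPM. The smooth muscle list did not move as a whole, with 1 of 3 tested genes up (LMOD1, by 1.51, SE 0.43, edgeR adjusted p = 0.0269, lost in 5 alternatives) and 1 down (SMTN, by -1.05, SE 0.20, adjusted p = 0.0053, lost in 1 alternative), although CNN1 was abundant only here. LMOD1, at 0.299 CPM in HCC4006P1 and 0.943 CPM in HCC4006ER, also passed the filter on low counts only through HCC4006ER, so its direction was fixed by it. The duct marker KRT19 and the 3 epithelial markers fell. What part the fibroblast list has in the rise of the contractile genes was not tested.

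**Figure D4:**
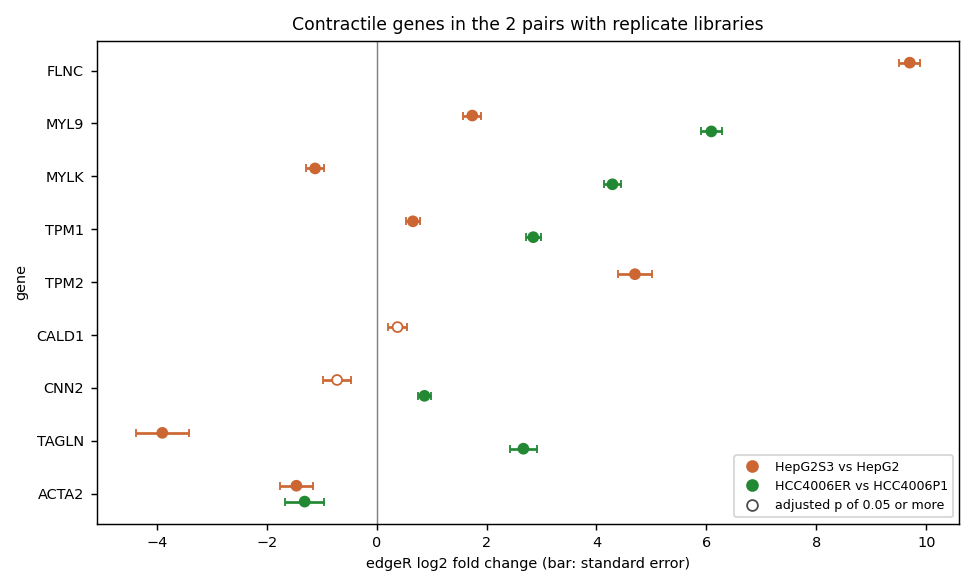
edgeR log2 fold change of each member, horizontal axis, for HepG2S3 against HepG2 (orange) and HCC4006ER against HCC4006P1 (green, without FLNC, TPM2 and CALD1), with bars for the standard error and open points for an adjusted p of 0.05 or more. CNN1 is left out because its fold change depends on the prior count, MYLK and TAGLN lie on opposite sides of 0 in the 2 pairs, and MYL9 and TPM1 rose in both.

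Whether the 2 replicated changes differ was tested by their interaction in edgeR over 14478 genes. Of 7 members tested, 6 changed more upward in HCC4006ER than in HepG2S3, where 27.7% of genes did, and 0 changed less, where 28.2% did. At an unadjusted edgeR p under 0.05 were 6 members and 60.7% of all genes. DESeq2 called 6 members more upward in HCC4006ER, where it called 16.4% of all genes. CNN1, 1 of these 6, passed the filter on low counts only through HCC4006ER, and without it 5 of 6 members changed more upward there. The difference was largest, CNN1 apart, for TAGLN at 6.54 (SE 0.57, edgeR adjusted p = 2.0e-05, difference 5.89 without HepG2 replicate 1) and MYLK at 5.37 (SE 0.22, adjusted p = 3.0e-07), which rose in HCC4006ER and fell in HepG2S3. MYL9 at 4.33 (SE 0.24, adjusted p = 1.3e-06 by edgeR) and TPM1 at 2.17 (SE 0.20, adjusted p = 2.6e-05) rose in both lines and rose more in HCC4006ER, and CNN2 differed by 1.56 (SE 0.30, adjusted p = 0.00196). ACTA2, which was lower in both, did not differ detectably at 0.12 (SE 0.53, edgeR adjusted p = 0.882). The pairs differ in tissue, drug and growth medium at once, and these cannot be told apart.

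Over the 7 parental lines, the question is whether any member changed with resistance in general. With counts summed per parental line, HCC4006P1 being taken from replicate 2 alone, edgeR called 0 of 19829 genes (0%) and 0 members, with 920 genes (4.64%) and 3 members (FLNC, MYL9 and TPM1) at an unadjusted p under 0.05, and DESeq2 called 104 genes and 0 members. With HCC4006P1 and HCC4006P2 taken as 1 parental line, 1 member and 4.17% of all genes were at an unadjusted p under 0.05 by edgeR. FLNC had a log2 fold change of 2.77 (SE 1.21, edgeR adjusted p = 0.994), and it ranged from 2.06 to 3.41 over the alternatives, which include leaving out the HepG2 or the HCC4006P1 family. MYL9 had 1.75 (SE 0.74, edgeR adjusted p = 0.994), TPM2 1.22, TAGLN 1.12, CNN1 0.96, TPM1 0.92, CALD1 0.56, MYLK 0.47, ACTA2 0.46 and CNN2 -0.01, none of which passed.

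An exact two-sided permutation test that flips the sign of the 7 family changes was also run. With 7 values its smallest p possible is 0.0156, so a gene could pass the adjustment only along with a large share of all genes, and a count of 0 says little. It called 0 of 15389 genes (0%) after Benjamini-Hochberg adjustment, with 894 genes (5.81%) and 3 of 10 members at an unadjusted p under 0.05 and a smallest adjusted p of 0.693. The mean change of FLNC was 2.86 (SD 2.86, n = 7, above 0 in 6 of 7, exact permutation p = 0.0312, adjusted p = 0.767), that of TPM1 1.01 (SD 1.13, 6 of 7, exact p = 0.0312, adjusted p = 0.767) and that of TPM2 1.35 (SD 1.81, 6 of 7, exact p = 0.0469, adjusted p = 0.802). MYL9 averaged 1.66 (SD 1.88, 5 of 7, exact p = 0.0625, adjusted p = 0.802). The families of HCC4006P1 and HCC4006P2 are counted apart here, although both carry the name of 1 line. The spread between families was as large as the mean for each of these genes. The median of the members' mean changes was 0.96, against 0.03 over all genes.

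Families also differed in which members carried the change. In the HepG2 family FLNC (7.77) and TPM2 (5.02) led, in the PancVB family FLNC (4.29) and MYL9 (1.77), in the HCC4006P1 family CNN1 (7.23), MYL9 (4.98) and MYLK (4.37), and in the HCC4006P2 family FLNC (4.12) and TPM1 (2.10), each as the mean change of the family's resistant lines. In the UWB1.289 family MYLK (2.45) and MYL9 (1.48) led, in the IGROV-1 family TAGLN (4.17) and ACTA2 (4.09), and in the HCC827P family no member passed 1. HCC4006P1 and HCC4006P2, which carry the name of 1 line but differ in the lung markers, shared CNN1, TPM1 and FLNC among the members up by 2-fold.

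Described across the 17 lines, of the 45 pairs of members 36 had a Pearson r of their levels above 0, with a median of 0.33. The lines share parents, so they are not independent points, and no p is given. TAGLN and MYL9 had r = 0.70, TPM1 and MYLK 0.70, and CALD1 and MYL9 0.69, whereas CALD1 and CNN1 had -0.35 and ACTA2 and FLNC -0.31. For the changes of the 7 families 25 of 45 were above 0, with a median of 0.19. With 7 points, a single family can set such an r, and none is given here for a single pair of genes. The mean of their standardised levels was highest in IGROV-1/CDDP (1.45), HCC4006ER (0.71) and IGROV-1 (0.63), and lowest in HCC4006P1 (-0.77), so that the erlotinib pair ran from rank 17 to rank 2. This mean includes CNN1, which was at 149 CPM in HCC4006ER and at most 1.59 CPM in any other line. Rank 2 may therefore rest on CNN1, and the rank without it was not computed.

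The genes outside the list whose level followed this mean most closely over the 17 lines, of 15379 ranked, were ENSG00000196409 (r = 0.91), for which no symbol was matched and which was at 0.421 to 3.64 CPM, the zinc finger gene ZNF74 (0.87), the scavenger receptor gene COLEC12 (0.86), the spectrin-binding ankyrin gene ANK1 (0.85) and the calcitonin receptor-like gene CALCRL (0.84). All peaked in IGROV-1 or IGROV-1/CDDP, 2 lines of 1 family. COLEC12 was at 0 in PancVB and 64.8 CPM in IGROV-1/CDDP.

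Per kilobase of the canonical transcript, TPM1 was the most abundant member in 13 lines. It stood at 1015 CPM per kb in HCC4006GR, 86.2% of the members' sum, and at 906 CPM per kb in IGROV-1/CDDP. For libraries of a 3′ kit, if there are any, counts do not grow with transcript length and this ranking may not hold. TPM2 led in HepG2S1 at 210 CPM per kb, HepG2S3 at 152 CPM per kb and U100 at 87.6 CPM per kb, and CNN2 led in UWB1.289 at 103 CPM per kb. The switch from TPM1 to TPM2 as the leading member in the sorafenib lines followed from the TPM2 rise described above. Summed over the members, the level was 518 CPM for HepG2 against 1279 CPM for HepG2S1 and 1057 CPM for HepG2S3, and 509 CPM for HCC4006P1 against 3397 CPM for HCC4006ER. HCC4006GR reached 1864 CPM, above its parent. It went from 1994 CPM in PancVB to 2184 CPM in PancB1Q and 2161 CPM in PancB1V, from 730 to 851 CPM in HCC827GR, from 1365 CPM in UWB1.289 to 1726 CPM in U10 and 1253 CPM in U100, and from 3471 to 4987 CPM in IGROV-1/CDDP. The summed CPM was thus higher than in the parent in 9 of 10 resistant lines, all but U100. The sum per kilobase was higher in 7 of 10, being 970 CPM per kb in PancVB against 897 and 909 CPM per kb in PancB1Q and PancB1V, and 397 CPM per kb in UWB1.289 against 369 CPM per kb in U100.

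The rest of the contractile machinery was followed as a list of 42 further genes by role. In HepG2S3 38 were tested by edgeR, 19 rose and 13 fell, with a median of 0.39. In HCC4006ER 35 were tested, 11 rose and 7 fell, with a median of 0.08. Over the 7 parental lines 40 were tested by edgeR and 0 passed. By the interaction 37 were tested in edgeR, and 11 changed more upward in HCC4006ER and 17 less, with a median of -0.41. The shares of all genes were 31.4% up and 32.1% down in HepG2S3, and 24.1% and 24.9% in HCC4006ER. By the interaction 27.7% of all genes changed more upward in HCC4006ER and 28.2% less. By pairs, with 2-fold as the call, the list had 15 up and 6 down in HepG2S1, 17 and 7 in HepG2S3, 2 and 2 in PancB1Q, 4 and 1 in PancB1V, 4 and 2 in HCC4006ER, 2 and 0 in HCC4006GR, 1 and 1 in HCC827GR, then 6 and 2 in IGROV-1/CDDP, and for olaparib 6 and 1 (U10) and 4 and 0 (U100). Of all genes, 23.2% were up and 15.4% down in HepG2S1, 24.6% and 14.5% in HepG2S3, 11.5% and 9.30% in HCC4006ER, and at most 9.04% up and 8.18% down in any other pair.

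Among the 9 paralogs of the members, 8 rose in HepG2S3, against 31.4% of all genes, and 1 fell, against 32.1%. TAGLN2 rose by 2.92 (SE 0.20, edgeR adjusted p = 2.3e-04) while TAGLN fell, MYL6, the essential light chain, rose by 1.61 (SE 0.18, adjusted p = 0.00118), and TPM4 by 1.27 (SE 0.14, adjusted p = 0.00112). CNN3, the third calponin, fell by 10.23 on the log2 scale (SE 0.28, edgeR adjusted p = 2.9e-05), CNN3 standing at 173 CPM in the parent, 0.102 CPM in HepG2S1 and 0.175 CPM in HepG2S3. It passed the filter on low counts only through HepG2, so its direction in that test was fixed by the filter. HepG2S3 and HepG2S1 thus lacked CNN1 and nearly all of CNN3 and kept CNN2. In HCC4006ER CNN3, TPM4 and MYL6 rose, TPM4 by 1.15 (SE 0.13, adjusted p = 6.8e-04 by edgeR), and TPM3 fell, the calls of CNN3 and TPM3 each lost in 3 alternatives. Over the 7 families the light chain MYL12A changed by 0.59 on average (SD 0.39, above 0 in 7 of 7, exact permutation p = 0.0156, the smallest possible, adjusted p = 0.693), with PancB1V lower than its parent at -0.11.

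Of the other actins, in HepG2S3 ACTB rose by 0.98 (SE 0.19, edgeR adjusted p = 0.0077) and ACTG1 fell by 1.02 on the log2 scale (SE 0.28, adjusted p = 0.023), the latter call being lost in 2 alternatives. The skeletal actin ACTA1 fell from 5.91 CPM in HepG2 to 0.127 CPM in HepG2S3, while the cardiac actin ACTC1 was at 0 counts in HepG2 and 82 counts over the HepG2S3 libraries, at least 31.2-fold higher. In the edgeR fit ACTA1 passed the filter on low counts only through HepG2, and ACTC1 only through HepG2S3. ACTG1 rose by 0.81 in HCC4006ER (SE 0.18, edgeR adjusted p = 0.0112, call lost in 1 alternative). The cytoplasmic actins ACTB and ACTG1 ranged over 1896 to 7124 CPM and 1418 to 5743 CPM in the 17 lines. Of the myosin heavy chains, MYH14 fell in both pairs, from 44.1 CPM in HepG2 to 0.0958 CPM in HepG2S3 and from 33.5 CPM in HCC4006P1 to 0.153 CPM in HCC4006ER, and MYH10 rose in HCC4006ER by 2.36 (SE 0.15, edgeR adjusted p = 7.1e-05). MYH14 passed the filter on low counts only through the parental line of each pair, so its direction was fixed by the filter. MYH9 fell in HepG2S3 by -0.88 (SE 0.17, edgeR adjusted p = 0.00658, lost without either HepG2S3 replicate) and rose in HCC4006ER by 0.82 (SE 0.15, adjusted p = 0.00549, lost in 1 alternative), with an interaction of 1.68 (SE 0.26, adjusted p = 6.3e-04). In the olaparib family MYH14 had 0 counts in UWB1.289, 13.7 CPM in U10, at least 53.3-fold higher, and 0.534 CPM in U100, a log2 change of 0.62.

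Of the 11 genes that anchor and bundle actin, 5 rose and 3 fell of 10 tested in HepG2S3, against 31.4% and 32.1% of all genes. In HCC4006ER 2 rose and 2 fell of 9 tested, against 24.1% and 24.9%. CSRP1, a LIM protein of smooth muscle, rose in HepG2S3 by 2.81 (SE 0.26, edgeR adjusted p = 6.1e-04), as did PALLD, LIMA1 and VCL, by 2.49, 2.62 and 1.66. In HCC4006ER CSRP1 and PALLD fell instead, by -0.62 (SE 0.15, edgeR adjusted p = 0.0149, lost in 3 alternatives) and -0.97 (SE 0.17, adjusted p = 0.00395, lost in 1 alternative). TNS1 took the reverse course, with -3.06 (SE 0.70, edgeR adjusted p = 0.0131, log2 change -1.74 without HepG2 replicate 1) in HepG2S3 and 1.58 (SE 0.23, adjusted p = 0.00205) in HCC4006ER. The interaction in edgeR was -3.49 for PALLD (SE 0.25, adjusted p = 5.9e-06), -3.47 for CSRP1 (SE 0.32, adjusted p = 2.7e-05) and 4.60 for TNS1 (SE 0.78, adjusted p = 0.00107). For TNS1 it ran from 3.29 to 5.28 over the alternatives. CSRP1 was higher by 2-fold or more in 6 of 10 pairs, among them 11.9 CPM in UWB1.289 against 113 CPM in U10 and 48.0 CPM in U100. ZYX averaged 0.61 over the families (SD 0.34, above 0 in 7 of 7, exact permutation p = 0.0156, adjusted p = 0.693), although in HepG2S3 it fell by edgeR (-0.48, SE 0.15, adjusted p = 0.0334, lost in 4 alternatives).

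Of the 4 genes that regulate transcription of the contractile genes, all 3 tested fell in HepG2S3, where 32.1% of all genes did. SRF fell by -2.07 (SE 0.15, edgeR adjusted p = 2.7e-04), MRTFA by -0.56 (SE 0.15, adjusted p = 0.0224) and MRTFB by -0.53 (SE 0.12, adjusted p = 0.0136), the calls for MRTFA and MRTFB each lost in 2 alternatives. In HCC4006ER MRTFB fell by 0.93 on the log2 scale (SE 0.14, edgeR adjusted p = 0.00247), and SRF at 0.42 (SE 0.15, adjusted p = 0.0577) did not pass. SRF was at 170 CPM in IGROV-1/CDDP against 70.7 CPM in its parent, the pair in which ACTA2, TAGLN and 3 of the 6 smooth muscle markers were higher by 2-fold or more. What part SRF has in these values was not tested. The family mean of MRTFB was below 0 in 7 of 7 (mean -0.38, SD 0.34, exact permutation p = 0.0156, adjusted p = 0.693), but 2 of the 10 resistant lines were higher than their parent, U100 by 0.18 and HepG2S1 by 0.15.

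The epithelial markers were lower in resistant lines throughout: EPCAM averaged -2.42 (SD 2.14), KRT8 -1.03 (SD 0.52) and KRT18 -0.88 (SD 0.41) over the 7 families, below 0 in each of 7, with an exact permutation p of 0.0156 and an adjusted p of 0.693 for each. In the edgeR fit over the 7 parental lines none of these markers passed, and each passed in 1 alternative. Their sum was highest in HCC4006P1, 4439 CPM, and lowest in IGROV-1, 285 CPM, and IGROV-1/CDDP, 127 CPM, the family with the most abundant contractile genes. The fibroblast list summed to 182 CPM in U10, of which THY1 made up 165 CPM, against 15.4 CPM in UWB1.289 and 26.4 CPM in U100, to 65.2 CPM in HCC4006GR, of which COL1A1 made up 53.6 CPM, and to 32.8 CPM in IGROV-1/CDDP against 7.93 CPM in IGROV-1. It was 3.96 to 6.03 CPM in the pancreatic lines and 7.44 and 13.4 CPM in HCC827P and HCC827GR. DCN, LUM, COL3A1 and FAP were each under 1 CPM in all 3 pancreatic lines. For the other families the part of these markers in the change of the contractile genes was not tested.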

How the data were processed

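RNA from 21 libraries of 17 cell lines was sequenced, and the deposited files hold raw counts per Ensembl gene, which the authors made with FastXClipper, Bowtie, TopHat, SAMtools and HTSeq on hg19, with no versions given (the methods also name STAR, for a 3′ kit). The study's methods name 2 library kits without saying which library used which. Reads that HTSeq placed on no gene, 28.0% to 42.8% of a library, were left out. Totals on genes were 9851195 to 36639473. Of 53515 identifiers, 45100 (84.3%) matched the annotation used for positions (GENCODE, GRCh37), and unmatched ones were left out of the HCC4006 and interaction fits, where the stretch without counts had to be located. The total of HCC4006P1 replicate 1 was raised from 18713124 to 22857185, so that the missing stretch makes up 18.1% of it, the share it had in replicate 2.

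Counts became CPM, and changes are differences of log2(CPM + 1) between line means. Replicated comparisons used edgeR 4.0.16 quasi-likelihood tests with TMM, filterByExpr and Benjamini-Hochberg adjustment over all genes tested, called at an adjusted p under 0.05, with DESeq2 1.42.0 as an alternative, in R 4.3.3. Other steps used Python 3.11.15, numpy 2.4.6, pandas 2.3.3, scipy 1.17.1 and matplotlib 3.10.9. The tests were tested on simulated data. The alternatives were size factors, filter, pseudocount (0.1), TMM library sizes, a replicate block, left-out libraries and families, and the treatment of HCC4006P1. Named were all 10 members, contractile genes of a role that passed a test or had its 2 largest changes, and the 5 genes most like the members' mean. The marker lists were smooth muscle, fibroblast, liver, lung, pancreatic duct, ovary carcinoma and epithelial. The members and lists were chosen with earlier results of these data known.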

Additional observations from a re-analysis of the deposited data

Results flagged for a closer look

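Of 10 groups of 7 family changes, 1 per member, 1 held a value far from the others: CNN1 changed by 7.23 (log2) in the HCC4006P1 family, with a gap to its nearest neighbour of 0.73 of the whole range, where 0.568 is the critical value for 7. Chance puts about 1 in 20 groups past that value. The HCC4006ER libraries were at 141 and 157 CPM and both parental libraries at 0 counts, so the value does not rest on 1 library.

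For 6 members the change in HCC4006ER differed from that in HepG2S3 by the edgeR interaction test: CNN1 by 22.47, a fitted value that depends on the prior count since CNN1 was at 0 in HCC4006P1 and HepG2S3 and passed the filter on low counts only through HCC4006ER, TAGLN by 6.54, MYLK by 5.37, MYL9 by 4.33, TPM1 by 2.17 and CNN2 by 1.56. These share the same 8 libraries, and 27.7% of all genes differed in that direction.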

How the results depend on the processing

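The number of genes called in HCC4006ER against HCC4006P1, 6266, was 3417 when the genes without counts in HCC4006P1 replicate 1 were kept. It was 4051 to 8370 on leaving out 1 library at a time, and 10281 without HCC4006P1 replicate 1 and with all genes, an alternative chosen after seeing the data. The lone library of a line was assumed to vary like the other groups. Over the 7 parental lines DESeq2 called 104 genes where edgeR called 0, and the cause was not tested.

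Directions turned in the fit over parental lines for members that did not pass. Leaving out 1 parental line gave CNN1 (0.96) values from -0.26 to 2.58, CNN2 (-0.01) from -0.15 to 0.11, ACTA2 (0.46) from -0.05 to 0.86 and MYLK (0.47) from -0.01 to 0.81. The lowest CNN1 and MYLK came without HCC4006P1 (CNN1 -0.04 without HCC4006P2), the lowest ACTA2 without IGROV-1, and CNN2 was positive without HepG2 (0.11), PancVB (0.11), HCC827P (0.04) or UWB1.289 (0.01). With HCC4006P1 and HCC4006P2 as 1 parental line CNN1 was -0.04, and with no filter CNN2 was 0.05. The interaction of ACTA2 (0.12) ran from -0.35, without HepG2 replicate 2, to 0.51, with -0.17 without HCC4006P1 replicate 2. TMM library sizes gave TPM1 0.04 and MYLK 0.02 in PancB1Q and MYLK 0.01 in IGROV-1/CDDP. A pseudocount of 0.1 CPM gave 1 member up in HCC827GR instead of 0. For these the cause was not tested.

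With a replicate block HepG2S3 had 5279 genes up and 5282 down (5308 and 5436 without it), HCC4006ER 3873 and 3914 (3084 and 3182) and the interaction 4035 and 4164 (4006 and 4088), with CNN2 as a further member that fell in HepG2S3. Changes of libraries with the same number had r = 0.0498 over genes in HepG2, so the numbers are not shown to pair libraries there. In HCC4006 r was 0.412 and the block called more genes, with the same members called. Whether the numbers pair libraries in HCC4006 is not stated in the labels and was not settled.

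Of single members in the fits, 314 values kept direction and call, 5 passed where they had not, 8 no longer passed and 12 turned. Of changes in pairs 252 moved by less than the spread of replicates (without replicates, their counting interval), 52 by more and 3 turned. All 20 means of the sign-flip test kept their side. Depth left CNN1 in most lines, and MYOCD, DES and LMOD1 in many, at or under the floor of 3 counts, 0.0819 to 0.305 CPM, where differences were not detectable. The 13 lines with 1 library have no measure of spread. Isoforms, protein and phosphorylation were not measured.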
